A study of Rattus norvegicus with 16 samples.

Results

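The genes described here are 29 genes of cholesterol synthesis and of its control by the transcription factor SREBP2, chosen as a list of gene names: 19 enzymes of sterol synthesis, 6 genes of SREBP2 control and 4 genes of sterol transport and storage. Their probes were matched by RefSeq transcript number. A probe was found for 28 of the 29, with none matched for Lbr, one of the sterol reductases. Mbtps2, a protease that releases SREBP from the membrane, stood well above background on 0 of 16 arrays and was not tested. The other 27 genes (18 enzymes, 5 control genes and 4 transport and storage genes), among 13146 transcripts tested, stood well above background on all 16 arrays.

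The livers came from male pups of the Sprague-Dawley strain, 21 days old. The dams had been dosed through gestation and lactation, and the pups stayed with their birth mothers in all 4 groups. Pups of the 0.5M and M groups came from dams given 0.5 and 1.0 mg/kg/day of mixed contaminants in corn oil (polychlorinated biphenyls, pesticides of the organochlorine class and methyl mercury). AhR pups came from dams given agonists of the aryl hydrocarbon receptor (non-ortho polychlorinated biphenyls, dioxins and furans) at 1.8 ng/kg/day of dioxin equivalents, and C pups from dams given corn oil. Each group had 4 arrays, each array held RNA pooled from 2 pups, and the 4 arrays of a group lay on 2 slides (slide 1 held replicates 1 and 2 of each group, slide 2 the others). Cy5 marked the liver RNA, and Cy3 a universal reference RNA made from a pool of rat cell lines. The values below are log2 ratios of liver to reference, so 0 marks the centre of an array and not an equal amount of RNA, and differences between groups are log2 differences with their standard error (SE). The comparisons ask how each exposure differed from C and from the other exposures, and the groups share 1 model with a term for the slide.

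Between 7082 (array M 1) and 13824 of 30367 probes stood well above background per array on slide 1, and between 13006 and 15686 on slide 2. All 6 hepatocyte markers examined (Alb, Ttr, Apoa1, Tf, Cps1 and Fgb) stood well above background on the 16 arrays. Their median lay 0.64 above its mean over the arrays on M 1 and 0.48 on AhR 1, with 5 of 6 markers above on each, against -0.25 to 0.16 on the other arrays. Transcripts of skeletal muscle were high on arrays 0.5M 4 and M 2, where the median of the 4 tested markers lay 5.27 and 4.93 above its mean over the arrays, against -1.32 to 0.41 on the other arrays. The 4 tested pancreatic markers were high on M 1 (0.90) and AhR 2 (0.61), and the 3 tested fat markers on C 2 (1.37). Prss1, Cela1, Pnlip and Cel of pancreas, and Adipoq, Ucp1 and Plin1 of fat, were examined but did not enter these medians, being dim or without a probe. Fewer cells of a type and less RNA per cell cannot be told apart in RNA of whole liver.

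Cholesterol is built from acetyl-CoA through mevalonate, farnesyl diphosphate, squalene and lanosterol, and the liver is a main site of this synthesis. SREBP2, made from Srebf2, is a protein of the membrane of the endoplasmic reticulum, where it is bound to the escort protein SCAP. When sterols are low, SCAP carries it to the Golgi, where the proteases encoded by Mbtps1 and Mbtps2 release the part that enters the nucleus and turns on the genes of the pathway. When sterols are high, INSIG1 and INSIG2 keep SCAP and SREBP2 in place. Insig1 is itself a target of SREBP, which closes a feedback loop.

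SREBP binds sterol regulatory elements near gene starts, often beside boxes for NF-Y and Sp1. The windows from 250 bases before to 50 bases after the gene start were read from RefSeq (build GRCr8), which held 24 of the 29 genes, and searched on both strands. The core of the element, TCACNCCA, was in 2 of 24 windows (8.33%, against 3.91% of all 27457), those of Msmo1 and Srebf2, where it started at -190 and -156 from the gene start. The longer form with an A before the core and a C after it, which contains the core, was in 0 of 24, against 0.251% of all windows. The NF-Y box CCAAT was in 17 (70.8%, against 37.7%) and the Sp1 box GGGCGG in 20 (83.3%, against 34.9%). A match describes letters and is no evidence of binding, and a window without one says nothing of the factor. The windows of 4 genes that carry the results below are shown on the + strand, with matches to TCACNCCA, CCAAT and GGGCGG in either orientation in capitals and no base in more than 1 match. They are Scap, at chr8:119184188-119184487, which held GGGCGG alone, Srebf2, at chr7:115543057-115543356, Msmo1, at chr16:29746863-29747162, and Hmgcs1, at chr2:53382054-53382353.
Scap: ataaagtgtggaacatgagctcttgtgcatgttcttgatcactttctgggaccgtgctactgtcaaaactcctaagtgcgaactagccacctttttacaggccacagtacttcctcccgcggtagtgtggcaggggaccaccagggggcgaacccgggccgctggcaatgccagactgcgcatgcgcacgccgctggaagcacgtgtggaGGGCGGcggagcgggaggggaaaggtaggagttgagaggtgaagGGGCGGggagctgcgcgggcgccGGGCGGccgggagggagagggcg
Srebf2: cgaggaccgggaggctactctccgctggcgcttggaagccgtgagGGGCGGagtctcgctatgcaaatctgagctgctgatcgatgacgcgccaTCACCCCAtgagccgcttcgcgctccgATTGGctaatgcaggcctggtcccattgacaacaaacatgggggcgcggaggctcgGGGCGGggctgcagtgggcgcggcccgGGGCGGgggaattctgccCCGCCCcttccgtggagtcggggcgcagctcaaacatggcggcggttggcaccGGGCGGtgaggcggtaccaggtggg
Msmo1: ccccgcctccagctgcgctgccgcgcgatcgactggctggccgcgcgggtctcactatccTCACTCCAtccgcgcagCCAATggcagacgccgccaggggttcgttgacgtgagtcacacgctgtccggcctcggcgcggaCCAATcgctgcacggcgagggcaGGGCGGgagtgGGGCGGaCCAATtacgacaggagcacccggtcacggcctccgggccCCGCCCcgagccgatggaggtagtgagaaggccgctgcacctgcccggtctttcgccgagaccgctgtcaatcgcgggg
Hmgcs1: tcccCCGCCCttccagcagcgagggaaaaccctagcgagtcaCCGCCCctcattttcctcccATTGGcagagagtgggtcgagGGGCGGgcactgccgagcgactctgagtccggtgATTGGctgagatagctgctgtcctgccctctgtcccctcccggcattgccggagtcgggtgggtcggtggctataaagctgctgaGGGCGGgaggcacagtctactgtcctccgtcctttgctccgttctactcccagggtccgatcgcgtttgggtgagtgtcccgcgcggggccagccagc

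Between the exposures, sterol genes were mostly lower in M than in 0.5M or AhR, and 1 of the 27 tested, Scap, passed the threshold of an adjusted p under 0.05 in one comparison. Scap, the escort of SREBP2, fell in M relative to AhR by 0.60 on the log2 scale, 1.51-fold lower. Its log2 ratios were -0.06, -0.52, -0.12 and -0.08 on the M arrays, against 0.32, 0.54, 0.22 and 0.52 on the AhR arrays. The 4 M arrays all lay below the 4 AhR arrays, and array M 2 was far below the other M arrays. The difference was -0.60 ± 0.11 (SE, n = 4 arrays each; limma, adjusted p = 0.0300 over the 13146 transcripts), in a comparison where 0.266% of all transcripts passed, and 0.0685% as lower. Array M 2 was also 1 of the 2 with muscle transcripts, and without it Scap differed by -0.49 with an adjusted p of 0.0568. Without the 5 arrays with transcripts of muscle, pancreas or fat, the value was -0.49 and the adjusted p 0.226. The call was also lost with the deposited value table (adjusted p = 0.0527), the replicate block (0.0626), the scanner's log ratios (0.0943) and median centring (1.00), with log2 differences from -0.73 to -0.60 (limma). The median of the tested muscle markers ranged from -1.30 to 4.93 on the M arrays and from -1.24 to 0.10 on the AhR arrays. Of the 8 markers, 4 were tested. The untested ones, Myh4, Tnnt3, Myl1 and Actn3, stood well above background on 1 to 3 arrays. Over the 16 fits that each left out 1 array, Scap passed in 10. These include every fit that left out a 0.5M or C array, which does not enter the difference of M and AhR. Of the fits that left out an M or AhR array, Scap passed only in those without M 1 or AhR 3. It missed the threshold without M 2, M 3, M 4, AhR 1, AhR 2 or AhR 4, with log2 differences from -0.63 to -0.49 and adjusted p from 0.0568 to 0.143. The difference was -0.72 ± 0.16 within slide 1 and -0.47 ± 0.16 within slide 2, with 2 arrays a group and a spread pooled over all 16 arrays.

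Scap was even in 0.5M, at 0.04, 0.08, 0.08 and 0.05, and more spread in C, at -0.07, 0.20, 0.29 and 0.11. The 0.5M arrays lay above the 4 M arrays and below the 4 AhR arrays without overlap, which 1.40% and 3.11% of all transcripts did in these directions. The differences did not pass, at -0.26 ± 0.11 (limma, adjusted p = 0.691) for M against 0.5M and -0.34 ± 0.11 (limma, adjusted p = 0.414) for 0.5M against AhR. Relative to C, Scap differed by -0.07 in 0.5M, -0.33 in M and 0.27 in AhR, none past the threshold.

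The other genes of SREBP2 control differed in both directions between M and AhR, and none passed. Srebf2, which encodes SREBP2 itself, had log2 ratios of -0.35, -0.20, 0.16 and 0.15 in M, against -0.23, 0.38, 0.64 and 0.65 in AhR. It was -0.07, -0.04, 0.26 and 0.07 in 0.5M, against -0.06, 0.05, 0.29 and -0.03 in C. AhR 1 lay within the range of the M arrays while the other 3 AhR arrays lay above every array of the other groups. The difference was -0.42 ± 0.12 (limma, adjusted p = 0.244) for M against AhR, and without AhR 1 it was -0.57 with an adjusted p of 0.0262 (limma), past the threshold. Relative to C, Srebf2 differed by -0.0099 in 0.5M, -0.13 in M and 0.30 in AhR.

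Insig1, the feedback target that retains SCAP, was -0.01, -0.82, -0.28 and -0.33 in 0.5M, -1.25, -0.41, -1.06 and -1.74 in M and -0.54, -0.50, -0.41 and -0.73 in AhR, against -0.62, -0.26, -1.08 and -1.09 in C. M 1, M 3 and M 4 were low and M 2 was not, so M overlapped each of the other groups. The differences from C were 0.40 in 0.5M, -0.35 in M and 0.22 in AhR. M differed from 0.5M by -0.76 ± 0.22 (limma, adjusted p = 0.484), the listed gene with the smallest p in that comparison. Insig2, the other retention protein, which is not driven by SREBP2 in the way of Insig1, was -0.81, -0.75, -0.77 and -1.05 in 0.5M, -0.80, -0.52, -0.05 and -1.18 in M and -1.01, -1.05, -0.98 and -0.97 in AhR, against -1.08, -0.87, -0.62 and -0.78 in C. Its spread was widest in M, where M 3 was the highest of all 16 arrays. It was the 1 gene of 27 that was higher in M than in AhR, by 0.36 ± 0.17 (limma, adjusted p = 0.508), and it differed from C by -0.0077 in 0.5M, 0.20 in M and -0.16 in AhR. Mbtps1, the protease that makes the first cut of SREBP2, differed from C by -0.08 in 0.5M, -0.10 in M and -0.0034 in AhR.

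**Figure D1:**
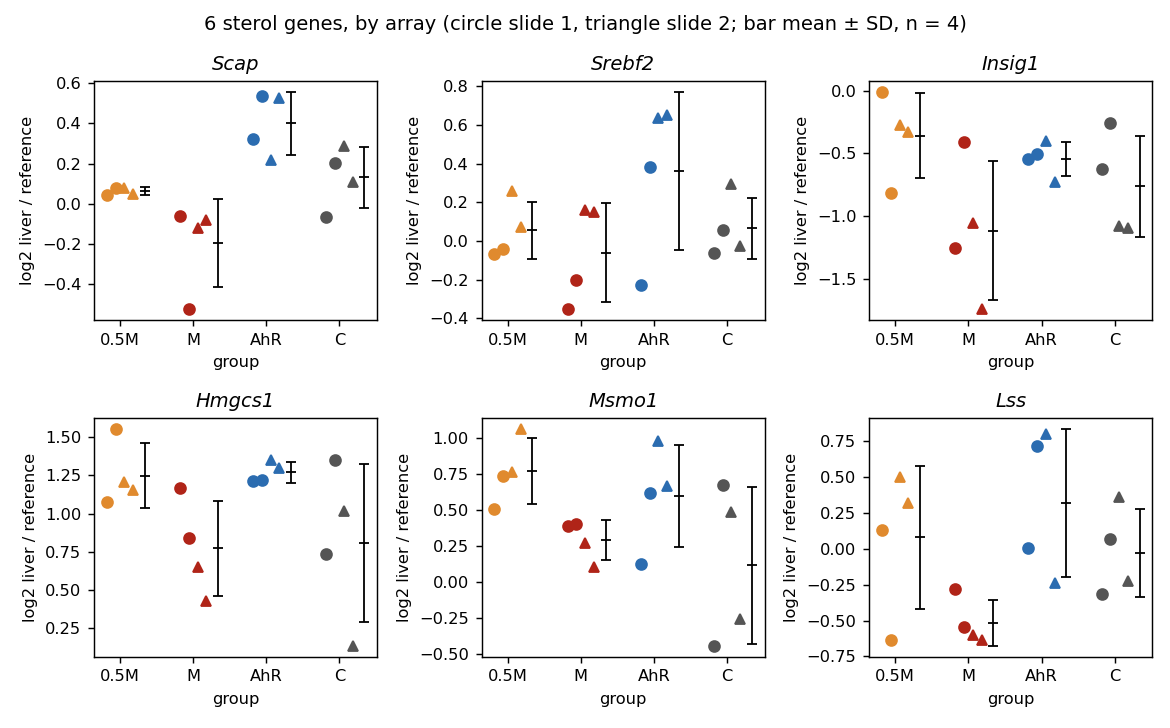
Log2 ratio of liver to reference for Scap, Srebf2, Insig1, Hmgcs1, Msmo1 and Lss on each of 16 arrays, by group (circles slide 1, triangles slide 2), with the mean ± SD of 4 arrays. The 4 M arrays of Scap lie between -0.52 and -0.06 and the 4 AhR arrays between 0.22 and 0.54.

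Across the whole list, 26 of the 27 genes were lower in M than in AhR, with a median log2 difference of -0.31, against 51% of all transcripts and a median of -0.0026 over them. All 18 enzymes were lower, with a median of -0.33 and differences from -0.84 to -0.25. At an unadjusted p under 0.05 there were 11 lower (Hmgcs1, Mvk, Mvd, Sqle, Lss, Nsdhl, Hsd17b7, Sc5d, Insig1, Srebf2 and Scap) of 27, where 5.52% of all transcripts met this. This count was 6 without AhR 3, 7 without AhR 4 or M 4, 2 on slide 1 alone and 1 with median centring in place of loess. It was 13 on slide 2 alone, 13 without AhR 1 and 12 without 0.5M 4. Besides Scap, the M and AhR arrays did not overlap for Hmgcs1, Mvd and Lss, where 2.24% of all transcripts did so in that direction. The enzymes are not independent observations, as their levels varied together from array to array. Within slide 1 the enzyme median was -0.23 with 17 of 18 lower, and within slide 2 it was -0.60 with 18 of 18 lower. Without the 5 arrays with transcripts of other tissues it was -0.44.

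Lss, which closes squalene epoxide into the lanosterol ring system, was -0.28, -0.54, -0.60 and -0.64 in M, against 0.0072, 0.72, 0.80 and -0.24 in AhR. It had the lowest p among the enzymes, with a difference of -0.84 ± 0.25 (limma, adjusted p = 0.244). Lss was 0.13, -0.63, 0.50 and 0.32 in 0.5M, against -0.31, 0.07, 0.36 and -0.23 in C, which spread across the M and AhR arrays. Hmgcs1, the synthase that makes HMG-CoA, was 1.17, 0.84, 0.65 and 0.43 in M, against 1.21, 1.22, 1.35 and 1.30 in AhR. The AhR arrays were close together and the M arrays were not, and the difference was -0.50 ± 0.19 (limma, adjusted p = 0.374). Mvd, which decarboxylates mevalonate diphosphate, was 0.41, 0.0028, -0.0046 and 0.05 in M, against 0.59, 0.62, 0.97 and 0.74 in AhR, a difference of -0.62 ± 0.20 (limma, adjusted p = 0.288). M 1, the highest M array for both genes, still lay below the lowest AhR array.

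Sterol genes were also lower at the higher dose of the mixture than at the lower one, in a comparison that shares the M arrays with the one above. In M relative to 0.5M, 24 of the 27 genes and 18 of the 18 enzymes were lower, with medians of -0.24 and -0.27, where 49.3% of all transcripts were lower. No listed gene passed the threshold, in a comparison where 0.0152% of all transcripts did. At an unadjusted p under 0.05, 7 were lower (Hmgcs1, Mvd, Sqle, Lss, Msmo1, Insig1 and Scap), against 2.84% of all transcripts. Each group held an array with muscle transcripts. The median of the tested markers ranged from -1.30 to 4.93 on the M arrays and from -0.99 to 5.27 on the 0.5M arrays. Without the 2 arrays with muscle transcripts the count was 1 and the enzyme median -0.26. Leaving out a single array gave 3 without 0.5M 2, 4 without 0.5M 3, 0.5M 4 or M 3, and 2 without M 4, and the count was 0 on slide 1 alone and with median centring. It was 8 without 0.5M 1, 9 without M 1 and 7 on slide 2 alone. Msmo1, the sterol C4-methyl oxidase, was 0.39, 0.40, 0.27 and 0.11 on the M arrays, against 0.51, 0.74, 0.76 and 1.07 on the 0.5M arrays. The groups did not overlap, and the difference was -0.48 ± 0.22 (limma, adjusted p = 0.730). The enzyme median for M against 0.5M was -0.24 within slide 1 and -0.37 within slide 2. In 0.5M relative to AhR, 21 of 27 genes were lower with a median of -0.08, where 50.6% of all transcripts were lower, and 2 (Srebf2 and Scap) at an unadjusted p under 0.05, where 5.96% of all transcripts were. That median was 0.01 without 0.5M 1 and 8.2e-04 without AhR 3, with 16 and 14 of 27 genes higher, so its direction rested on single arrays. The count of 2 was 5 without AhR 1, 4 without 0.5M 3, and 1 without 0.5M 4, AhR 2, AhR 3 or AhR 4. None of the 27 passed in that comparison, in which 0.0228% of all transcripts did.

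**Figure D2:**
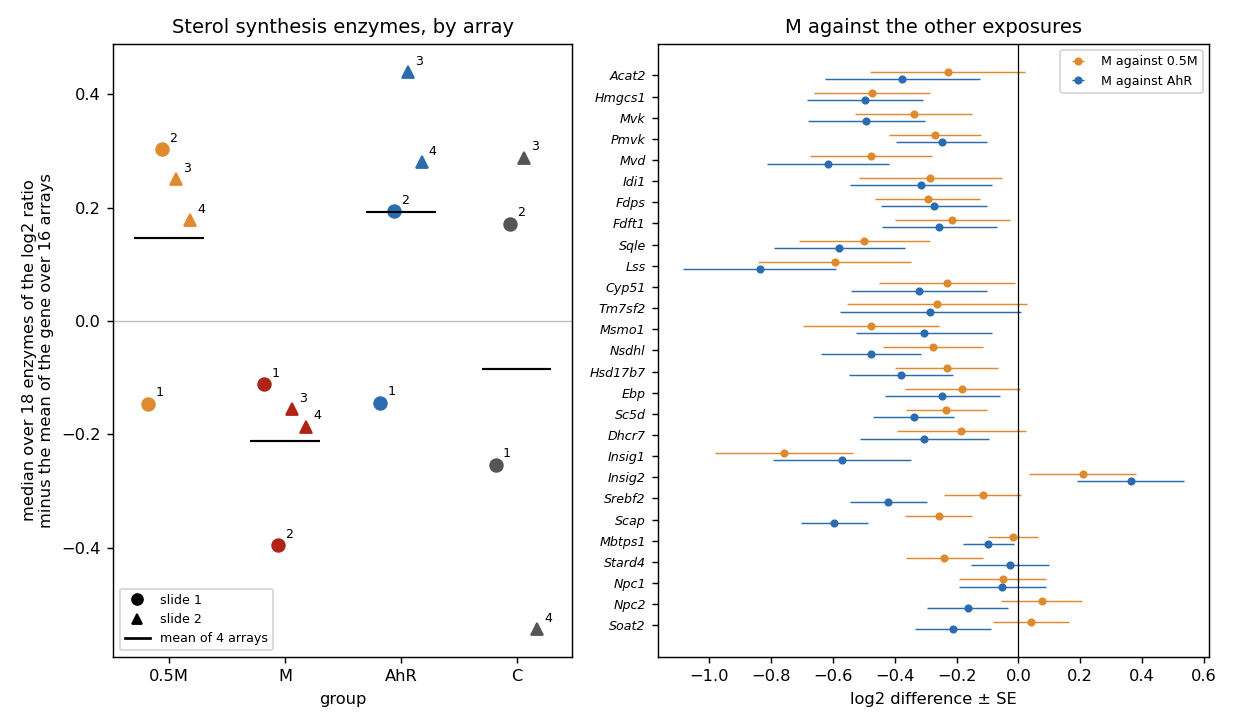
Left, the median over 18 enzymes of the log2 ratio minus each gene's mean over 16 arrays, one point per array with its replicate number, by group, with the mean of 4 arrays as a line. Right, log2 difference ± SE of each gene for M against 0.5M and M against AhR. The M arrays lie between -0.40 and -0.11 and C 4 is the lowest array at -0.54. On the right nearly all points lie left of 0, Insig2 being the exception in both comparisons together with Npc2 and Soat2 against 0.5M.

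Against C, 0 of the 27 genes passed in any of the 3 comparisons by limma, where 0.0152% of all transcripts passed in 0.5M, 0.319% in M and 0.00761% in AhR. The smallest adjusted p was 0.657 in 0.5M, 0.268 in M and 1.00 in AhR. The median SE of the listed genes was 0.186, wider than the 0.104 of all transcripts. In 0.5M, 19 of 27 genes and 17 of 18 enzymes were higher than in C, with medians of 0.12 and 0.17, where 48.7% of all transcripts were higher. In M, 23 of 27 genes were lower, with a median of -0.11 over the list and over the enzymes, where 50.6% of all transcripts were lower. In AhR, 22 of 27 genes and 18 of 18 enzymes were higher, with medians of 0.23 and 0.25, where 50.1% of all transcripts were higher. At an unadjusted p under 0.05 there were 2 higher in 0.5M (Msmo1 and Hmgcs1, against 2.60% of all transcripts), 1 lower in M (Scap, against 5.61%) and 5 higher in AhR (Hmgcs1, Mvd, Msmo1, Srebf2 and Scap, against 1.99%). Single arrays, the slide and the normalization moved these counts. That of AhR was 0 without C 4, 1 without C 1, AhR 3 or AhR 4, 2 without AhR 2, and 10 without C 2 or AhR 1. That of 0.5M was 7 without C 2 and 1 without 0.5M 3, 0.5M 4, C 1 or C 4, and that of M was 5 without C 4, 3 without M 1, and 2 without M 2, 0.5M 2 or AhR 4. Without the 5 arrays with transcripts of other tissues, the counts were 7 in 0.5M, 2 in M and 5 in AhR. With median centring in place of loess they were 0 in 0.5M, 0 in M and 0 in AhR. In these directions they were 0 in each group on slide 1 alone. On slide 2 alone they were 6 in 0.5M, 1 in M and 10 in AhR. These 3 comparisons share the C arrays. For 0 listed genes were the arrays of an exposed group clear of the C arrays. Of all transcripts, 1.37% were so as higher and 1.67% as lower in 0.5M, 2.11% and 2.07% in M, and 0.981% and 1.02% in AhR.

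The medians relative to C depended on array C 4. Over the 18 enzymes, the median level relative to each gene's mean was -0.15, 0.30, 0.25 and 0.18 on the 0.5M arrays, -0.11, -0.40, -0.16 and -0.19 on the M arrays and -0.14, 0.19, 0.44 and 0.28 on the AhR arrays, against -0.25, 0.17, 0.29 and -0.54 on the C arrays. C 4 was the lowest C array for 13 of 18 enzymes and C 3 the highest for 11. The median range of an enzyme within a group was 0.54 in 0.5M, 0.55 in M and 0.79 in AhR, against 0.88 in C. Without C 4, the enzyme medians relative to C were 0.02 in 0.5M, -0.26 in M and 0.07 in AhR. Without C 2 or C 3, that of M was -0.0091 or -0.014. In 0.5M and AhR replicate 1 was the low array, being lowest for 14 of 18 enzymes in 0.5M and for 13 in AhR. Without it the enzyme medians relative to C were 0.30 in 0.5M and 0.39 in AhR. M against AhR does not use C in its difference, and its enzyme median stayed between -0.45 and -0.28 over the fits that left out 1 array.

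**Figure D3:**
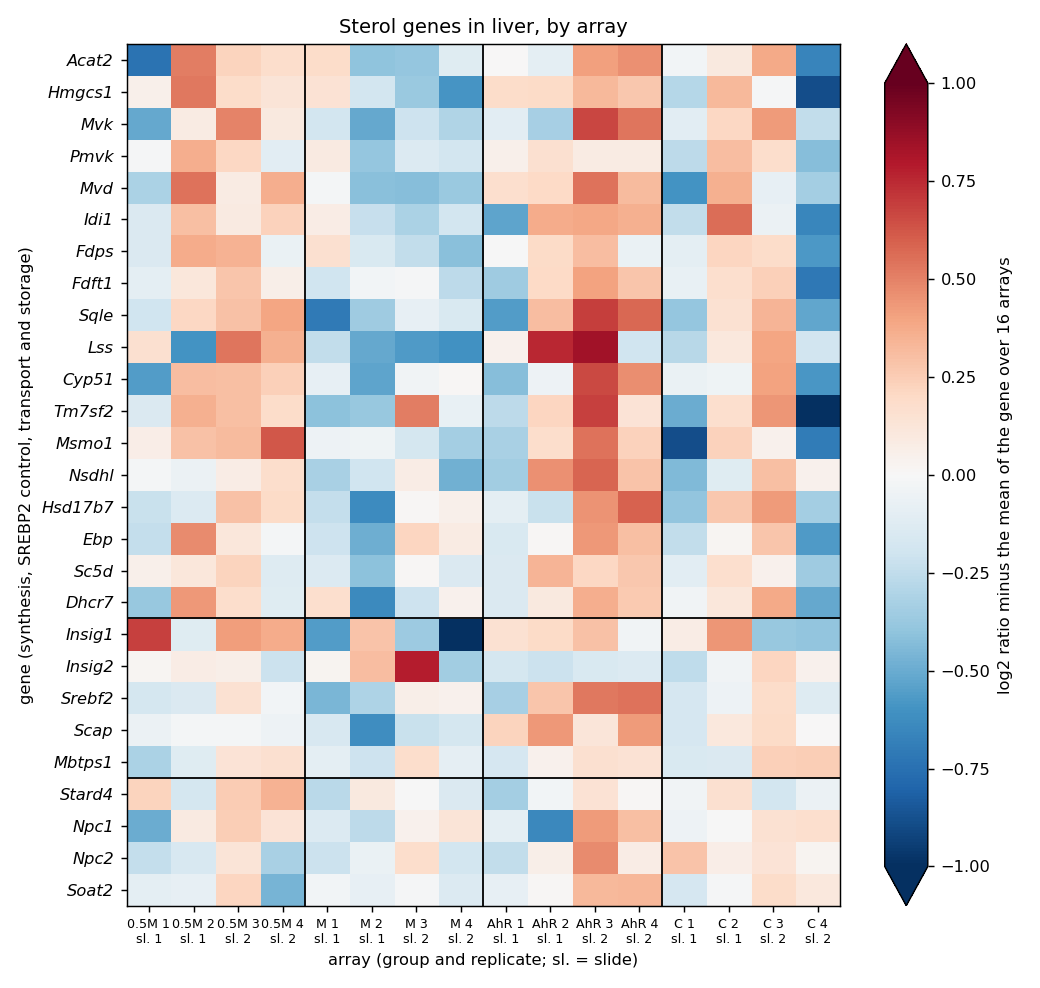
Log2 ratio of each of 27 genes (rows) minus its mean over 16 arrays, on each array (columns, with group, replicate and slide), from below (blue) to above (red); colours saturate at 1 in either direction. C 4 and M 2 are blue for most of the enzymes, and AhR 3 is red for nearly all, being the highest AhR array for 14 of 18 enzymes.

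The slides gave different sizes for the comparisons with C. The enzyme median for 0.5M was 0.05 within slide 1 and 0.34 within slide 2, that for M was -0.23 and -0.02, and that for AhR was 0.04 and 0.54. Tested gene by gene, 0 of 27 listed genes and 0% of all transcripts passed for a difference between slides in any of the 3 comparisons by limma. With 2 arrays a group on each slide, the median SE of this difference was 0.36 over the listed genes. At an unadjusted p under 0.05 there were 2 for AhR against C, Mvk and Idi1, where 3.26% of all transcripts were, and 0 for 0.5M and M, where 2.08% and 5.71% were. Over the fits that left out 1 array these counts ranged from 0 to 6 for 0.5M, 0 to 4 for M and 0 to 11 for AhR, each highest without C 3. The slide difference of the enzyme medians depended on C 4, which lay on slide 2. Taken gene by gene as slide 2 minus slide 1, its median over the enzymes was 0.31 for 0.5M, 0.19 for M and 0.52 for AhR, and without C 4 it was -0.07, -0.20 and 0.13, so the direction turned for 0.5M and M. For M it also turned without M 2 (-0.11) or C 2 (-0.05). The slides held different pups, so slide and pups cannot be told apart. Mvk, the mevalonate kinase, was 0.38, 0.15, 1.15 and 1.02 in AhR, against 0.38, 0.69, 0.91 and 0.24 in C. Its difference was -0.27 ± 0.24 on slide 1 and 0.51 ± 0.24 on slide 2, and the difference between slides was 0.78 ± 0.34 (limma, unadjusted p = 0.0387, adjusted p = 1.00). It was -0.03, 0.56, 0.98 and 0.58 in 0.5M and 0.30, -0.03, 0.27 and 0.18 in M. Idi1, the isomerase of the isoprene units, was 0.27, 1.17, 1.18 and 1.16 in AhR, against 0.55, 1.36, 0.74 and 0.14 in C. The low AhR 1 and the low C 4 stood on opposite slides, and the difference between slides was 0.96 ± 0.43 (limma, unadjusted p = 0.0446, adjusted p = 1.00). Idi1 was 0.65, 1.09, 0.89 and 1.03 in 0.5M and 0.87, 0.56, 0.48 and 0.61 in M.

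For the enzymes from acetyl-CoA to the isoprene units, differences from C lay between -0.37 and 0.47, and none passed. Acat2, the cytosolic thiolase that joins acetyl-CoA units, differed by 0.10 in 0.5M, -0.13 in M and 0.25 in AhR. Hmgcs1 differed by 0.44 in 0.5M, -0.04 in M and 0.46 in AhR, and its arrays were 1.07, 1.55, 1.21 and 1.15 in 0.5M, against 0.74, 1.35, 1.01 and 0.14 in C. The C values spanned nearly the range of all arrays, with C 4 lowest. Mvk differed by -0.03 in 0.5M, -0.37 in M and 0.12 in AhR, Pmvk, the phosphomevalonate kinase, by 0.16 in 0.5M, -0.11 in M and 0.14 in AhR, and Mvd by 0.33 in 0.5M, -0.15 in M and 0.47 in AhR. Mvd was 0.10, 0.97, 0.51 and 0.79 in 0.5M, against -0.17, 0.78, 0.34 and 0.08 in C, with a wide spread in both groups. Idi1 differed by 0.22 in 0.5M, -0.07 in M and 0.25 in AhR. The SE of these differences was between 0.15 and 0.25.

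In the steps from farnesyl diphosphate to the sterol ring, each of the 4 enzymes was above C in 0.5M and AhR and below it in M, and none passed. Fdps, the farnesyl diphosphate synthase, differed from C by 0.20 in 0.5M, -0.10 in M and 0.18 in AhR, and a second probe of it by 0.15, -0.04 and 0.20 in that order. Fdft1, which makes squalene and so commits the pathway to sterols, differed by 0.18 in 0.5M, -0.03 in M and 0.23 in AhR. Sqle, the squalene epoxidase, differed by 0.28 in 0.5M, -0.22 in M and 0.36 in AhR, and Lss by 0.11 in 0.5M, -0.49 in M and 0.35 in AhR. Lss in M was the largest difference from C among the enzymes in that group, with an adjusted p of 0.528 (limma). It was also the enzyme least tied to the others across arrays.

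From lanosterol to cholesterol, the largest difference from C was that of Msmo1 in 0.5M. Msmo1 differed from C by 0.65 in 0.5M, 0.18 in M and 0.48 in AhR. Its value in 0.5M had the smallest p of the list in that group, 0.65 ± 0.22 (limma, adjusted p = 0.657), and the AhR arrays were 0.12, 0.62, 0.98 and 0.67, against -0.45, 0.67, 0.48 and -0.26 in C. C 1 and C 4 were below every array of the exposed groups, and C 2 and C 3 were within the range of the exposed arrays. Cyp51, the lanosterol demethylase, was -0.10, 0.77, 0.76 and 0.70 in 0.5M, 0.37, -0.07, 0.42 and 0.47 in M and 0.03, 0.41, 1.12 and 0.92 in AhR, against 0.39, 0.42, 0.86 and -0.13 in C. It differed from C by 0.15 in 0.5M, -0.09 in M and 0.24 in AhR, with the groups overlapping throughout. Tm7sf2, a sterol C14 reductase, differed by 0.45 in 0.5M, 0.19 in M and 0.47 in AhR, with the largest SE of the list at 0.29. Nsdhl, a dehydrogenase of C4 demethylation, differed by 0.10 in 0.5M, -0.18 in M and 0.30 in AhR. Hsd17b7, the keto reductase of the same complex, differed by 0.04 in 0.5M, -0.19 in M and 0.19 in AhR. The last steps were similar in size. Ebp, a sterol isomerase, differed by 0.21 in 0.5M, 0.03 in M and 0.28 in AhR, Sc5d, a desaturase, by 0.12 in 0.5M, -0.11 in M and 0.23 in AhR, and Dhcr7, the reductase that acts on 7-dehydrocholesterol, by 0.04 in 0.5M, -0.15 in M and 0.16 in AhR.

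**Figure D4:**
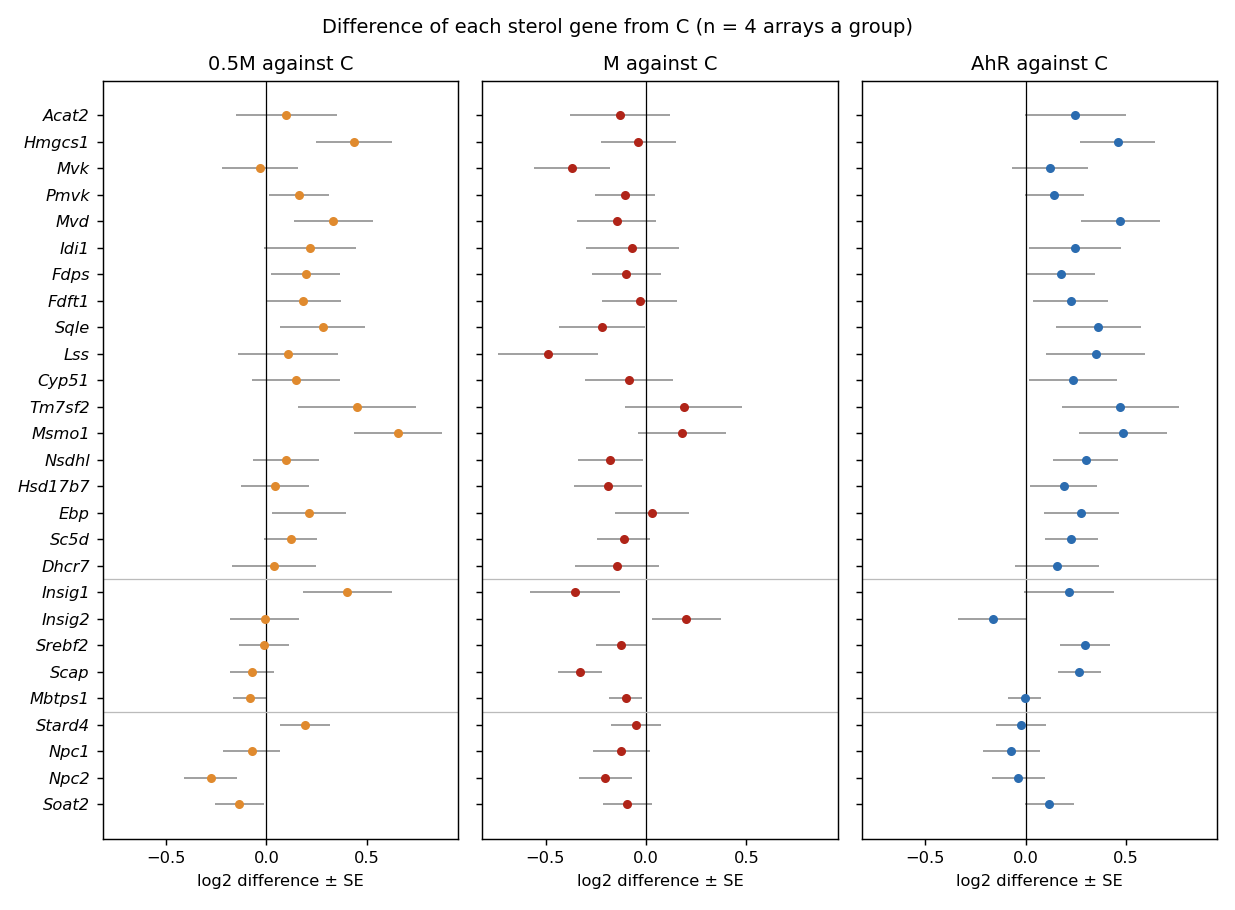
Log2 difference from C ± SE of each of 27 genes in 0.5M, M and AhR, from 4 arrays a group; grey lines part enzymes, SREBP2 control and transport and storage. The points of AhR lie right of 0 for all 18 enzymes, those of 0.5M for 17, and those of M left of 0 for 15.

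Of the genes of transport and storage, none passed. By the brightest probe of each, Npc1, Npc2 and Soat2 were below C in 0.5M, where 17 of 18 enzymes were above it. Npc2 and Npc1 hand cholesterol out of the lysosome. Npc2 was -0.37, -0.30, -0.0079 and -0.47 in 0.5M, -0.36, -0.20, 0.04 and -0.32 in M and -0.38, -0.08, 0.34 and -0.06 in AhR, against 0.15, -0.07, 8.2e-04 and -0.11 in C. It differed from C by -0.28 in 0.5M, -0.20 in M and -0.04 in AhR, and the value in 0.5M was the lowest of the list in that group (adjusted p = 0.749, limma). Npc1 was -0.74, -0.14, 0.0072 and -0.10 in 0.5M, -0.37, -0.50, -0.19 and -0.10 in M and -0.34, -0.88, 0.19 and 0.06 in AhR, against -0.28, -0.24, -0.09 and -0.07 in C. The C arrays lay close together and 0.5M 1 and AhR 2 were far below them. Npc1 differed from C by -0.07 in 0.5M, -0.12 in M and -0.07 in AhR. Its second probe, well above background on 16 arrays, gave 0.08, -0.04 and 0.19 in that order. The 2 probes of Npc1 thus disagreed in sign for 0.5M and AhR. Stard4, which carries cholesterol through the cytosol and is a target of SREBP2, was 0.24, -0.16, 0.27 and 0.36 in 0.5M, -0.25, 0.11, 0.02 and -0.12 in M and -0.32, -0.0071, 0.17 and 0.03 in AhR, against -0.02, 0.18, -0.17 and -0.04 in C. It differed from C by 0.19 in 0.5M, -0.05 in M and -0.02 in AhR, while its second probe, well above background on 10 arrays, gave 0.27, 0.16 and 0.17, so the probes disagreed in sign for M and AhR. Soat2, which esterifies cholesterol for storage and export, differed by -0.13 in 0.5M, -0.09 in M and 0.12 in AhR. For the 27 genes together, the F-test over the 4 groups passed for 0, where 0.175% of all transcripts passed. At an unadjusted p of that test under 0.05 there were 7, where 9.35% of all transcripts were (3 without AhR 3 or without the 2 arrays with muscle transcripts, 4 without M 3 or M 4, and 11 without AhR 1), and the smallest adjusted p was 0.139 for Scap (limma).

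After group and slide means were removed, the enzymes still varied together. Over the 16 arrays, the 153 pairs of enzymes had a median Pearson correlation of 0.66, with 150 above 0, against 0.02 for enzymes with all other transcripts. The arrays share the reference RNA, the slides and the processing, so these values describe the arrays and were not tested. Lss (median 0.24 with the other enzymes) and Nsdhl (0.33) stood apart from the rest, for which it was 0.62 to 0.78. Srebf2 had a median of 0.46 with the enzymes, Npc1 and Npc2 0.33 each, Soat2 0.26, Scap 0.24, Mbtps1 0.18, Insig2 0.14, Insig1 0.07 and Stard4 0.04. Insig1 and Stard4 correlated with each other (0.87) more than either did with the enzymes.

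**Figure D5:**
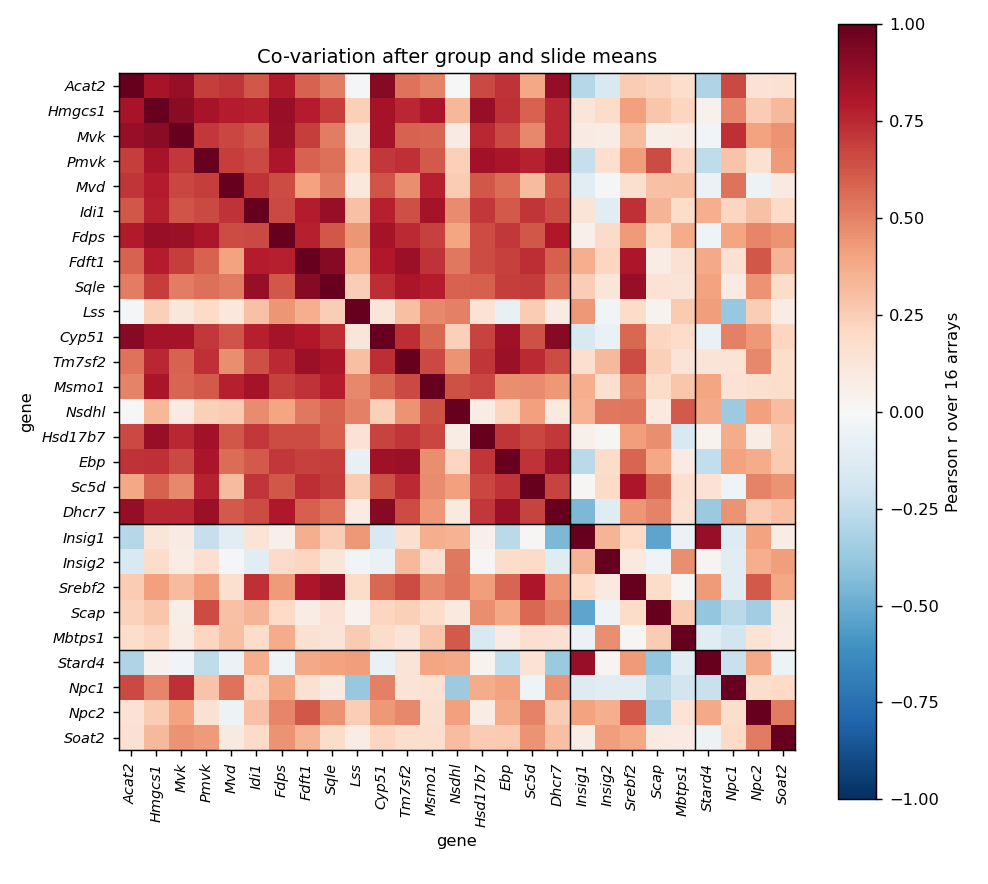
Pearson correlation over 16 arrays between the 27 genes after group and slide means were removed, from -1 (blue) to 1 (red), with black lines parting enzymes, SREBP2 control and transport and storage. The block of enzymes is red apart from the rows of Lss and Nsdhl, with a median of 0.66.

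Outside the list, the 10 named transcripts that most resembled the mean of the enzymes over the 16 arrays had correlations from 0.72 to 0.89. These were taken on values as measured, with differences between groups and slides kept. After group and slide means were removed, the correlations of the same 10 were 0.66 to 0.85. The first was Acss2 (0.89), which makes acetyl-CoA from acetate, followed by the membrane protein Tmem97 (0.80) and the fatty acid desaturases Fads1 (0.79) and Fads2 (0.78). Aacs (0.75), which activates acetoacetate for lipid synthesis, was among them, with Trim47, Pskh1, Yipf1, Tysnd1 and Mrps27. Over the comparisons with C and M against AhR, the smallest adjusted p among the 10 was 0.163, for Aacs in M against AhR (limma). Acss2 differed from C by 0.20 in 0.5M, -0.23 in M and 0.20 in AhR.

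Neighbouring pathways were examined as lists, and 0 of their genes passed in any comparison with C or in M against AhR (limma). The shares of all transcripts at an unadjusted p under 0.05, against which the counts below are read, were 2.60% higher and 3.92% lower in 0.5M, 4.52% and 5.61% in M, and 1.99% and 1.80% in AhR relative to C, and 5.52% lower in M against AhR. In M against AhR, the counts were 4 lower of the 14 tested genes of fatty acid synthesis, 5 lower of 11 of sterol efflux, 1 lower of 11 of sterol sensing and 0 of 12 of the isoprenoid branch. In M against 0.5M, 11 of 14 genes of fatty acid synthesis were lower, with a median of -0.41, where 49.3% of all transcripts were lower. There were 4 lower at an unadjusted p under 0.05, against 2.84% of all transcripts, and 0 passed. Fasn had the smallest p (-0.78 ± 0.20, limma, adjusted p = 0.454). Lower values in M than in 0.5M were thus not particular to the sterol genes. Of 17 genes of SREBP1 and fatty acid synthesis, 14 were tested, with medians of 0.21 in 0.5M, -0.16 in M and 0.22 in AhR relative to C, and -0.35 for M against AhR. The genes at an unadjusted p under 0.05 were 3 higher in 0.5M, 2 higher and 1 lower in M, and 3 higher in AhR. Me1, the malic enzyme that supplies NADPH, had the smallest p in 0.5M (0.88 ± 0.22, adjusted p = 0.578) and in M (0.79 ± 0.22, adjusted p = 0.184), and Acaca, the acetyl-CoA carboxylase, in AhR (0.22 ± 0.07, adjusted p = 1.00). Me1 was thus above C in M where the median of its list was below. Of 13 genes of sterol efflux and LXR targets, 11 were tested, with medians of -0.03 in 0.5M, -0.21 in M and 0.02 in AhR, and 1 lower in 0.5M, 4 lower in M and 0 in AhR at an unadjusted p under 0.05. The smallest p belonged to Cyp8b1, of bile acid synthesis, in 0.5M (-0.52, adjusted p = 0.736), Nr1h2, an LXR receptor, in M (-0.24, adjusted p = 0.288), and the sterol exporter Abcg1 in AhR (0.21, adjusted p = 1.00). Of 15 genes of sterol sensing and degradation, 11 were tested, with medians of 0.03, -0.03 and 0.05 in the same order of groups, and 1 higher and 1 lower in M at an unadjusted p under 0.05, with 0 in 0.5M and AhR. They were led by Vcp, which extracts proteins from the membrane (0.18, adjusted p = 0.752), Erlin1, a membrane protein that binds cholesterol (-0.29, adjusted p = 0.190), and the NF-Y subunit Nfyc (-0.17, adjusted p = 1.00). Of 14 genes of the isoprenoid branch, which shares farnesyl diphosphate with the sterols, 12 were tested, with medians of 0.0032 in 0.5M, 5.9e-04 in M and -0.04 in AhR, and 1 lower in AhR at an unadjusted p under 0.05, with 0 in 0.5M and M. Dolk, of dolichol synthesis, had the smallest p in 0.5M (0.15, adjusted p = 0.788), the farnesyltransferase subunit Fntb in M (-0.17, adjusted p = 0.633) and Nus1, also of dolichol synthesis, in AhR (-0.16, adjusted p = 1.00).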

How the data were processed

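The scanner software was Agilent Feature Extraction 10.7.3.1, per the file headers. Each of the 16 scan files deposited by the authors gives medians of signal and background intensity in both channels of 62976 spots. A log ratio in these files is a log10 value, per the file headers, and spot quality marks are deposited as other values of 0 or 1. A table of values deposited by the authors is on the log2 scale, with column medians from -0.0093 to 0.012. It correlated at 0.977 to 0.998 with ratios of Cy5 to Cy3 from each array's own scan file without background subtraction, and at most at 0.878 with another array, so its direction is known and its exact normalization is not given in the sources used here. The plan named mean signals, but the medians were used, as the files hold these.

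Signals were background-corrected (normexp, offset 50) and normalized by loess within arrays with limma 3.58.1 in R 4.3.3, with the data.table package (version 1.17.8), with control spots at weight 0 and flagged spots left out. A probe was kept if 4 or more of the 16 arrays marked its Cy5 signal as well above background (14524 of 30367, 12 of them without values on every array). Of the 30367 probes, 18004 had a symbol by RefSeq number. The brightest probe stood for a gene, which left 13146 transcripts, 8562 with a symbol. Groups were compared with lmFit, contrasts.fit and eBayes, with a mean per group and a slide term, two-sided, adjusted by Benjamini-Hochberg within each of 6 comparisons at 0.05. Differences within a slide and between slides came from another such fit to all 16 arrays, with a mean per group and slide. Results on 1 slide alone were fitted to the arrays of that slide only. The script was also tested on simulated data, with means and spreads taken from these data and noise drawn separately for each transcript.

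The members and lists were chosen with earlier results of these data known. All 29 genes are named. Values on every array are given for genes past the threshold, then by the smallest p against C or between slides up to 12, plus Srebf2, Scap, Insig1 and Insig2, and the other lists are named by their smallest p. Litters are not given in the labels. If arrays shared litters, the p-values are too small, and they measure only the spread between these arrays. The alternatives tried were the background correction, the normalization, the filter, array weights, the probe rule, the deposited values, the slide or replicate number as a block, each slide alone, and leaving out arrays.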

Additional observations from a re-analysis of the deposited data

Results flagged for a closer look

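In 112 groups of 4 arrays examined (the 27 genes and the median level of the enzymes, in 4 groups each), 4 had an array far from the other 3. The gap between that array and its nearest neighbour, as a share of the group's whole range, is given for each. Chance marks about 1 in 20 groups in this way. Scap in M was lowest on M 2, at -0.52 against -0.12 for the nearest array, a share of 0.873, and M 2 was also an array with muscle transcripts. Mvd in M was highest on M 1, at 0.41 against 0.05, a share of 0.867. Idi1 in AhR was lowest on AhR 1, at 0.27 against 1.16, a share of 0.970. Cyp51 in 0.5M was lowest on 0.5M 1, at -0.10 against 0.70, a share of 0.920.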

How the results depend on the processing

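The fall of Scap in M relative to AhR was the 1 call. It kept its direction in 30 of 30 alternatives, with log2 differences from -0.73 to -0.47 and adjusted p from 0.0152 to 1.00 (limma). It passed in 16, among them every fit that left out a 0.5M or C array, which does not enter its difference. Of the fits that left out an M or AhR array, it passed only in those without M 1 or AhR 3. The count of listed genes past the threshold was 0 with median centring (-0.73, adjusted p = 1.00), the scanner's log ratios (-0.67, 0.0943), the deposited value table (-0.60, 0.0527), slide 1 alone (-0.72, 0.825), slide 2 alone (-0.47, 0.306), and without the 2 arrays with muscle transcripts (-0.49, 0.0754) or the 5 with other tissues (-0.49, 0.226). With the replicate number as a block in place of the slide it was 0 as well (-0.60, 0.0626). Deviations of same-numbered arrays from their group means correlated from -0.23 to 0.46, with a median of 0.19. The median was 0.12 for arrays of other numbers on the same slide. Whether the numbers pair the arrays cannot be told from these values. Leaving out 1 array gave 0 to 1. Without AhR 1 the 1 gene was Srebf2 and not Scap. In the other comparisons of 2 groups and the F-test the count was 0 throughout.

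The median of the list for M against C was -0.32 with median centring. On slide 2 alone, the medians of the list and the enzymes for AhR against C were 0.48 and 0.54, and that of the enzymes for M against AhR was -0.60. The medians of the difference between slides moved most. For M against C they were 1.04 and 1.14 (list and enzymes) with median centring, where that of all transcripts was 0.47, and -0.11 for the enzymes without the 2 arrays with muscle transcripts; leaving out 1 array gave -0.17 to 0.39 and -0.20 to 0.57. For 0.5M against C leaving out 1 array gave -0.072 to 0.55 and -0.074 to 0.72. For AhR against C they were 0.82 and 0.88 with median centring, with 0.21 for all transcripts, and leaving out 1 array gave 0.13 to 0.61 and 0.13 to 0.92. The lowest of each came without C 4. The cause of these shifts was not tested. The number of arrays limits the precision, as the median SE of a listed gene was 0.186.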
